A study of Homo sapiens with 36 samples.

Results

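Metallothioneins are small cysteine-rich proteins that bind zinc and copper, and their genes are read into RNA when free zinc or glucocorticoid rises. The measured genes of this system were 4 metallothioneins (MT1E, MT1G, MT1X and MT2A), the zinc-sensing transcription factor MTF1 and the zinc exporter SLC30A1, also called ZnT1. They were chosen by name: every row whose symbol is MT1 or MT2 followed by a single letter, plus MTF1 and SLC30A1. This gave 6 genes of 15186 in the table, and all 6 passed the filter on low counts. When zinc in the cell rises, MTF1 binds metal response elements (MREs) near the start of metallothionein genes and of SLC30A1 and switches them on. The metallothioneins then hold the metal, and SLC30A1 pumps it out of the cell. Glucocorticoids raise MT2A in many cell types through the glucocorticoid receptor (GR).

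The cells were U2OS, a human osteosarcoma line, stably transfected with GR alpha, so that all groups carry the added receptor. There were 6 siRNA conditions. Control cells received control siRNA only (siNSsiNS), and the others received siRNA labelled as against the GR coregulator Hic-5 (siHic5siNS), the chromatin remodelers CHD9 (siCHD9siNS) or BRM (siBRMsiNS), or Hic-5 together with 1 remodeler (siCHD9siHic5, siBRMsiHic5). Beginning 48 h after transfection, each condition was given 100 nM dexamethasone (dex, a synthetic glucocorticoid) or the ethanol vehicle (etoh) for 8 h. Each of the 12 groups held 3 biological replicates made on different days, 36 libraries in all. The comparisons ask how Hic-5 and the remodelers alter dex-dependent and basal RNA levels.

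Libraries held about 27442300 to 47148300 counts. The targeted transcripts fell in the vehicle libraries that carry their siRNA with 1 exception. TGFB1I1, which encodes Hic-5, was lower by a log2 change of -2.01 in siHic5siNS, -1.93 in siCHD9siHic5 and -2.45 in siBRMsiHic5, and SMARCA2, which encodes BRM, by -1.79 in siBRMsiNS and -2.01 in siBRMsiHic5. CHD9 was lower in siCHD9siNS, by -0.56 (in dex libraries by -0.23, adjusted p = 0.411, edgeR), but in siCHD9siHic5 it was higher than in control cells, by 0.47 (adjusted p = 0.0292, edgeR), so the latter are called the libraries labelled siCHD9siHic5. The ribosomal RNA28S5 took more than 1% of the counts in 11 of 36 libraries and up to 7.51%, among them 2 of 3 libraries in each siBRMsiNS and siBRMsiHic5 group. The osteoblast lineage genes RUNX2, ALPL, COL1A1 and SPARC were present. SP7, COL1A2, IBSP and BGLAP were looked for and had no row under those symbols, so their levels are not known here. Of the markers of other cell types, the 4 epithelial and 3 endothelial ones measured each summed to at most 13.7 scaled CPM in any library. The 4 leukocyte ones had no row either. Bulk libraries cannot tell fewer cells making an RNA from less of it per cell.

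The promoters of MT2A, MT1X and SLC30A1 are shown because MTF1 acts on these genes through MREs. These are the 250 bases before the RefSeq start on GRCh38.p14, read in the direction of the gene, with the MRE cores TGCACNC and TGCGCNC in capitals wherever they stand on either strand. MT2A lies at chr16:56608334-56608583 on the plus strand, MT1X at chr16:56682220-56682469 on the plus strand and SLC30A1 at chr1:211579162-211579411 on the minus strand.
MT2A: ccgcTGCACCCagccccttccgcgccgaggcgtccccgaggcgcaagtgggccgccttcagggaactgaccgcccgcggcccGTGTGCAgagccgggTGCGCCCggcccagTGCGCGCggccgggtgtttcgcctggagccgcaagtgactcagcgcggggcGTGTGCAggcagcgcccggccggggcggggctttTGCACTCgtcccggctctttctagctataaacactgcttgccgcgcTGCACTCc
MT1X: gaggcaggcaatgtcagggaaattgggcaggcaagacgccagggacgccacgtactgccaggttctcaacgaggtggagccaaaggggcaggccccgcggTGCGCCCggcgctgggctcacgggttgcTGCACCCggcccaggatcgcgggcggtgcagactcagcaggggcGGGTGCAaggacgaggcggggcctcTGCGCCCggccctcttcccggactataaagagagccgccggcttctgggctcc
SLC30A1: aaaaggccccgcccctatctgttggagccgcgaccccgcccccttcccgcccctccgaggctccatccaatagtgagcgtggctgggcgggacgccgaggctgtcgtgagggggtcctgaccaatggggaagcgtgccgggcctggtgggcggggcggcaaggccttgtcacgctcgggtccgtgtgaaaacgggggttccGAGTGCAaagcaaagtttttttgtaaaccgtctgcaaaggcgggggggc
The MT2A window holds 7 MRE cores, the nearest at bases -8 to -2 from the start. MT1X holds 4 and SLC30A1 holds 1, at bases -49 to -43 on the strand opposite to the gene. Bases after the RefSeq start matched a GENCODE v29 transcript of the same gene for MT2A, MT1X and MTF1, but not for SLC30A1. The SLC30A1 start, and with it the count and position of its core, is therefore uncertain. The MTF1 window holds 0. Of 35116 RefSeq promoter windows of this length, 24.83% hold at least 1 such core, 0.3702% at least 4 and 0.03132% at least 7. The palindromic glucocorticoid response element, AGAACA and TGTTCT with 3 bases between them, was in none of the 4 windows and in 1 of the 35116. The single site AGAACA, which 12.39% of windows hold, was in none of the 4 either. Only exact copies within these 250 bases were searched, and sites with mismatches or further upstream were not looked for. With 1 window of 35116 holding the full element, its absence tells nothing about GR sites at these genes. The table of promoters gave windows for 4 of the 6 genes, and MT1E and MT1G were without one.

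The 4 metallothioneins lie in 1 cluster on chromosome 16, from MT2A (chr16:56608584-56609497) over MT1E (chr16:56625781-56627112) and MT1G (chr16:56666730-56668065, on the minus strand) to MT1X (chr16:56682470-56684196). MTF1 (chr1:37809574-37859592) and SLC30A1 (chr1:211571568-211579161) are both on the minus strand of chromosome 1. Metallothionein exons resemble each other closely. Of the 50-base windows in the spliced RNA, another annotated gene shared 51.0% for MT1X, 20.2% for MT1G, 10.2% for MT2A and 10.0% for MT1E. SLC30A1 shared 0% and MTF1 0.647%. How the authors counted reads with more than 1 place is not given in the sources used here, so the split between MT1X, MT1G and their relatives is uncertain.

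Levels are CPM, counts relative to the library total, after upper-quartile scaling (scaled CPM). Per kilobase of exon, control cells with vehicle held 1345 ± 311 scaled CPM of MT2A (SD, n = 3), 737 ± 158 of MT1E and 78.1 ± 14 of MT1X. On the same scale, SLC30A1 stood at 13.3 ± 3.43, MT1G at 11.3 ± 0.645 and MTF1 at 5.17 ± 0.467. MT2A and MT1E therefore made up nearly all of the RNA of the 4 measured metallothioneins. Any other metallothionein, MT3 and MT4 among them, had no row, so its level is not known here. Across the 36 libraries MT2A took a median of 67.1% of the counts of the 4 genes (56.0 to 75.5%) and MT1E 30.5% (21.3 to 39.6%), with a median of 2.61% for MT1X and 0.365% for MT1G.

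**Figure D1:**
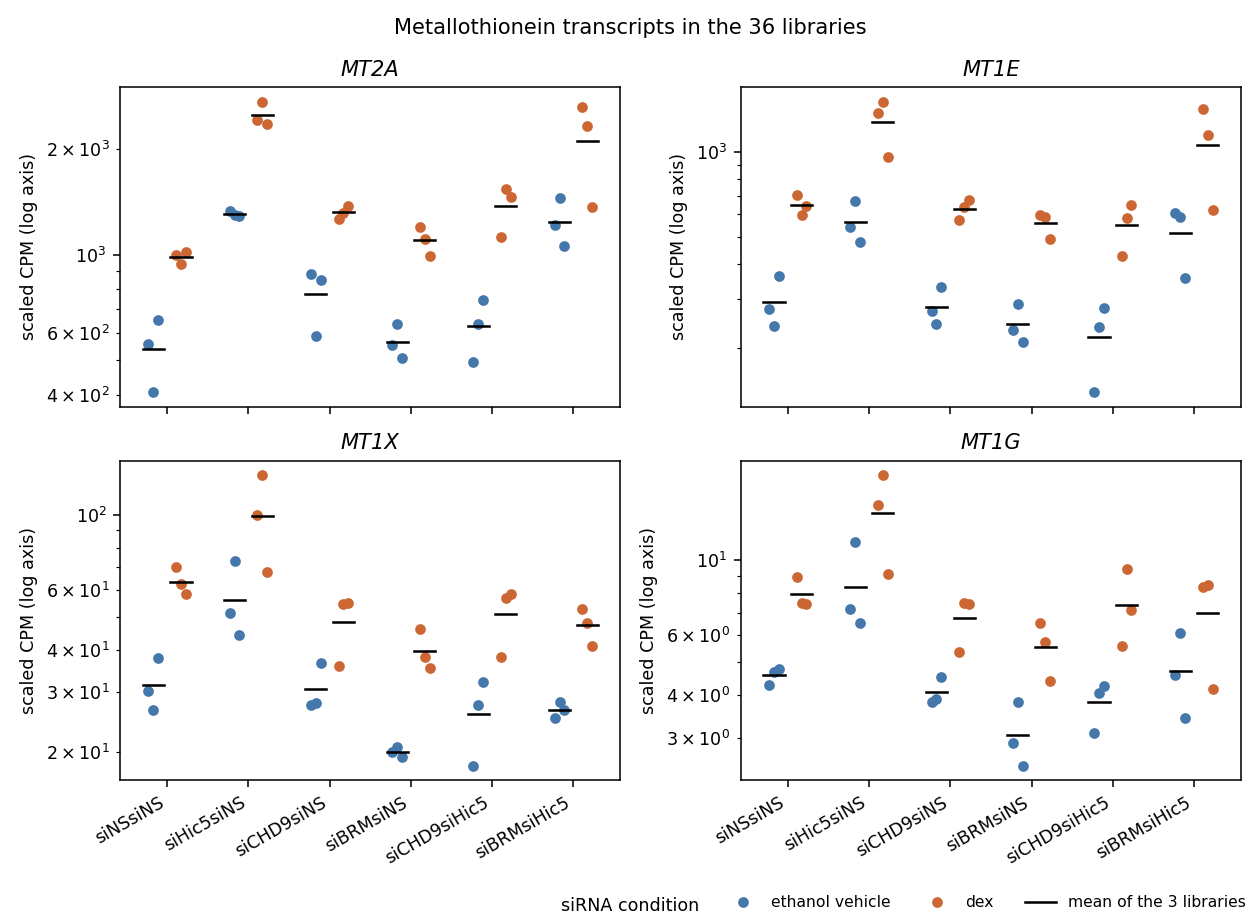
Scaled CPM (log axis) of MT2A, MT1E, MT1X and MT1G in each of the 36 libraries, by siRNA condition, with vehicle in blue, dex in orange and the mean of 3 libraries as a bar. Each dex library sits above the vehicle library of the same condition and replicate number, and the siHic5siNS libraries with dex have the highest mean of all 12 groups for each gene.

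Dex raised all 4 metallothioneins. The dex library was above the vehicle library of the same condition and replicate number in 18 of 18 pairs for each of the 4, with a median ratio of 2.33 for MT1E (1.74 to 3.05), 1.89 for MT2A (1.29 to 2.42), 1.84 for MT1X (1.3 to 2.34) and 1.66 for MT1G (1.21 to 2.32). MTF1 was higher with dex in 6 of 18 pairs and SLC30A1 in 1 of 18. Neither the zinc sensor nor the exporter was higher with dex in most pairs.

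In control cells MT2A stood at 558, 406 and 654 scaled CPM with vehicle and at 999, 941 and 1015 with dex. The groups did not overlap, as for 8.16% of all genes, and the 3 dex libraries lay within a narrow range. MT1E moved from 277, 240 and 363 to 706, 597 and 641, again without overlap. MT1X moved from 30.2, 26.7 and 37.7 to 70.1, 62.3 and 58.4. MT1G, the scarcest of the 4, moved from 4.28, 4.67 and 4.77 to 8.89, 7.45 and 7.42, which is 128 to 294 counts per library. The log2 changes were 0.87 ± 0.19 (SE) for MT2A, 1.14 ± 0.26 for MT1E, 1.01 ± 0.22 for MT1X and 0.79 ± 0.27 for MT1G.

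In edgeR's quasi-likelihood test over 15179 genes with Benjamini-Hochberg adjustment, called at an adjusted p under 0.05, MT2A (adjusted p = 0.0348), MT1E (0.0388) and MT1X (0.0341) were called in control cells, where 0.343% of all genes were called higher. MT1G was not (adjusted p = 0.738). Same-numbered dex and vehicle libraries of a condition deviated together, so each response was also fitted with 18 pair terms (replicate block). With that block all 4 were called in control cells, with log2 changes of 1.16 ± 0.11 for MT1E, 1.02 ± 0.12 for MT1X, 0.89 ± 0.13 for MT2A and 0.79 ± 0.14 for MT1G and a largest adjusted p of 0.0039, against 1.87% of all genes called higher. Without the block, leaving out any 1 of the 6 control libraries reduced the 3 calls to 0 or 1. With the block, leaving out any 1 pair left 3 or 4.

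The metallothioneins were then tested in the other 5 conditions. Without the block the count of metallothioneins called higher was 2 in siHic5siNS (0.725% of all genes), 2 in siCHD9siNS (0.929%), 3 in siBRMsiNS (0.382%), 3 in the libraries labelled siCHD9siHic5 (0.428%) and 0 in siBRMsiHic5 (0.494%). With any 1 library left out, the count of the 6 genes called ranged from 0 to 1 in siCHD9siNS, from 0 to 3 in siBRMsiNS, from 1 to 3 in siHic5siNS and in the libraries labelled siCHD9siHic5, and from 0 to 2 in siBRMsiHic5. In siBRMsiHic5 all 4 metallothioneins had an unadjusted p under 0.05 in edgeR, and DESeq2 called 3. In siBRMsiNS the count was 0 when the libraries with more than 1% RNA28S5 were left out, which leaves 1 library a group, and the MT1X call was lost that way in control cells (1.16, adjusted p = 0.0851) and in the libraries labelled siCHD9siHic5 (0.98, adjusted p = 0.0615). With the block all 4 were called in each of the 5, where 4.36%, 11.1%, 2.38%, 3.23% and 4.18% of all genes were called higher, in the same order of conditions. The block log2 changes over the 6 conditions were 1.00 to 1.37 for MT1E, 0.72 to 1.14 for MT2A, 0.65 to 1.02 for MT1X and 0.53 to 0.93 for MT1G. The median change of all genes tested lay between -0.03 and 0.01.

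The 2 genes outside the cluster were called in 1 condition each, and only with the block. SLC30A1 fell with dex in siHic5siNS, from 48.0, 42.3 and 43.7 to 35.2, 33.8 and 32.8 scaled CPM, with a block log2 change of -0.40 ± 0.08 (adjusted p = 0.00481, edgeR). Its groups did not overlap, as for 10.9% of all genes, and 4.57% of all genes were called lower there. MTF1 rose in siCHD9siNS, from 30.8, 37.5 and 32.6 to 38.0, 39.8 and 38.6, by 0.21 ± 0.06 (adjusted p = 0.017). That call was lost without pair 1 or pair 3. Without the block the adjusted p was 0.774 for SLC30A1 and 0.63 for MTF1.

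**Figure D2:**
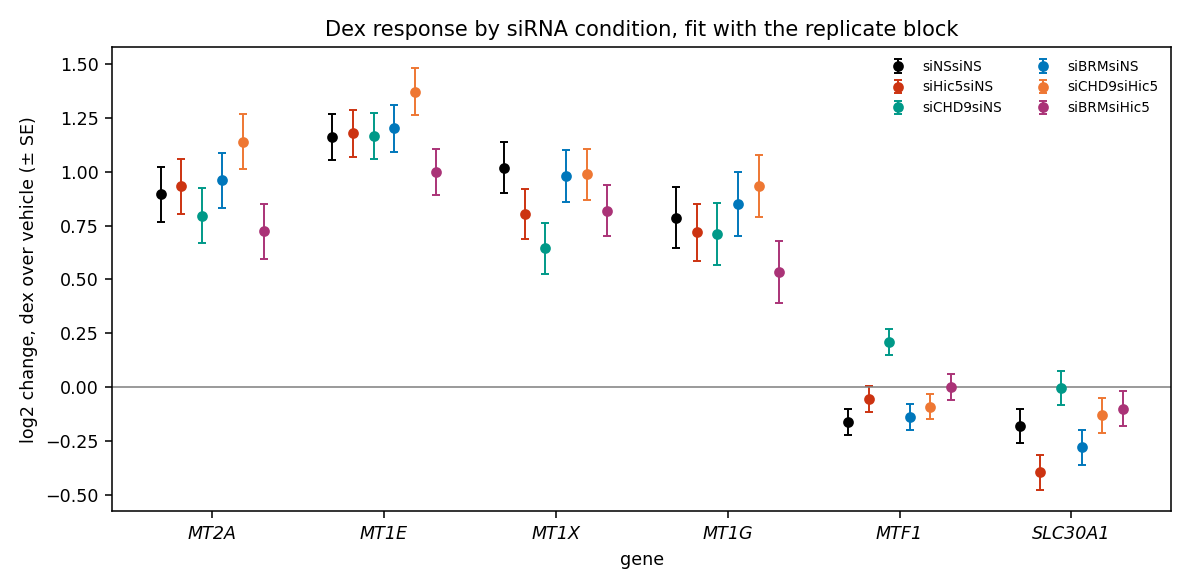
Log2 change of each gene, dex over vehicle, with its SE, in the 6 siRNA conditions, from the fit with the replicate block. The metallothioneins lie between 0.53 and 1.37 in all conditions, while MTF1 and SLC30A1 lie between -0.40 and 0.21.

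Whether an siRNA condition changed the dex response itself was tested as a difference of responses, in 7 comparisons that share control or siHic5siNS libraries. Without the block 0 of 42 results were called by edgeR, 1 had an unadjusted p under 0.05, and DESeq2 called 0. The share of all genes called was 0% in 6 of the 7 comparisons and 0.00659% for siCHD9siNS against control. For the 4 metallothioneins the 28 differences ran from -0.35 to 0.27 in log2. The outermost ends of their 95% intervals were -1.01 and 1.00. Without the block, differences of up to about 2-fold were therefore not excluded for every gene and comparison. With the block the SEs of these 28 fell to between 0.15 and 0.21, the differences ran from -0.37 to 0.25 and none was called (lowest adjusted p = 0.207). The block called 4.03% of all genes for siCHD9siNS against control and at most 0.184% in each other comparison. That none of the 28 was called is to be read beside those low shares. For siHic5siNS against control, the block difference was 0.02 ± 0.15 for MT1E and 0.04 ± 0.18 for MT2A. MTF1 was the exception: its response in siCHD9siNS exceeded that in control cells by 0.37 ± 0.09 with the block (adjusted p = 0.028), where 4.03% of all genes were called. That call was lost without pair 1 of siCHD9siNS and without pair 1 or 3 of control cells.

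FKBP5 and TSC22D3, reference targets of GR, rose with dex in all 6 conditions, by 1.31 to 1.90 and 1.5 to 2.12 in log2 without the block. PER1 was called with the block in 5 of the 6. Among the other zinc transporters, the list of 9 ZnT exporters had 7 genes tested and the list of 14 ZIP importers 10. Without the block 1 of these 17 was called in a dex response, SLC30A4 in siCHD9siNS (0.67 ± 0.17, adjusted p = 0.0484, edgeR). With the block, ZnT genes were called higher in siCHD9siNS (2), siBRMsiNS (1) and siBRMsiHic5 (1), among them SLC30A2 in all 3 (0.89, 1.26 and 1.05), and 1 was called lower in siHic5siNS. With the block, ZIP genes were called higher in siHic5siNS (2), siCHD9siNS (2), siBRMsiNS (1) and the libraries labelled siCHD9siHic5 (2), to be read beside the shares of all genes given above for that fit. In control cells the median log2 change was 0.0073 for the ZnT and 0.02 for the ZIP genes, beside 0.01 for all genes.

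In siHic5siNS the metallothioneins were higher than in control cells, and SLC30A1 was lower. In the vehicle libraries labelled siCHD9siHic5, where TGFB1I1 was also low, only MTF1 of these genes was called against control, as given below. The comparisons with control cells that follow share the control libraries. In vehicle libraries, MT2A stood at 1331, 1298 and 1287 scaled CPM in siHic5siNS against 558, 406 and 654 in control cells. The siHic5siNS values were nearly equal to each other and all above the highest control library. Such a lack of overlap between these 2 groups held for 61.2% of all genes tested. The log2 change was 1.27 ± 0.19 (adjusted p = 4.82e-06, edgeR). MT1E stood at 541, 670 and 478 against 277, 240 and 363 (0.94 ± 0.26, adjusted p = 0.00298), with no overlap. MT1X stood at 51.5, 72.9 and 44.3 against 30.2, 26.7 and 37.7 (0.83 ± 0.22, adjusted p = 0.00256). MT1G stood at 7.18, 11.3 and 6.51 against 4.28, 4.67 and 4.77 (0.86 ± 0.27, adjusted p = 0.00953), and its call was lost without siHic5siNS replicate 2 (0.58, adjusted p = 0.10). The vehicle level of MT2A in siHic5siNS, 1305 ± 23.1, was above that of control cells with dex, 985 ± 38.8, without overlap.

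SLC30A1, the exporter, moved the other way. It stood at 48.0, 42.3 and 43.7 scaled CPM in siHic5siNS against 73.2, 91.6 and 54.1 in control cells, a log2 change of -0.71 ± 0.18 (adjusted p = 0.00195, edgeR). The highest siHic5siNS library was below the lowest control library. MTF1, the sensor, stood at 36.3, 48.4 and 35.7 against 43.6, 42.9 and 36.8 (-0.03, 95% interval -0.29 to 0.22), and its groups overlapped. This condition changed much of the transcriptome: 53.1% of all tested genes were called, 26% higher and 27.2% lower, so 5 called of 6 genes is to be read beside that share. The median log2 change of all genes was -0.01. With the 11 libraries of high RNA28S5 left out, 2 libraries a group remained here, and MT2A (1.45), MT1E (1.23), MT1X (1.13), MT1G (1.05) and SLC30A1 (-0.87) all stayed called.

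**Figure D3:**
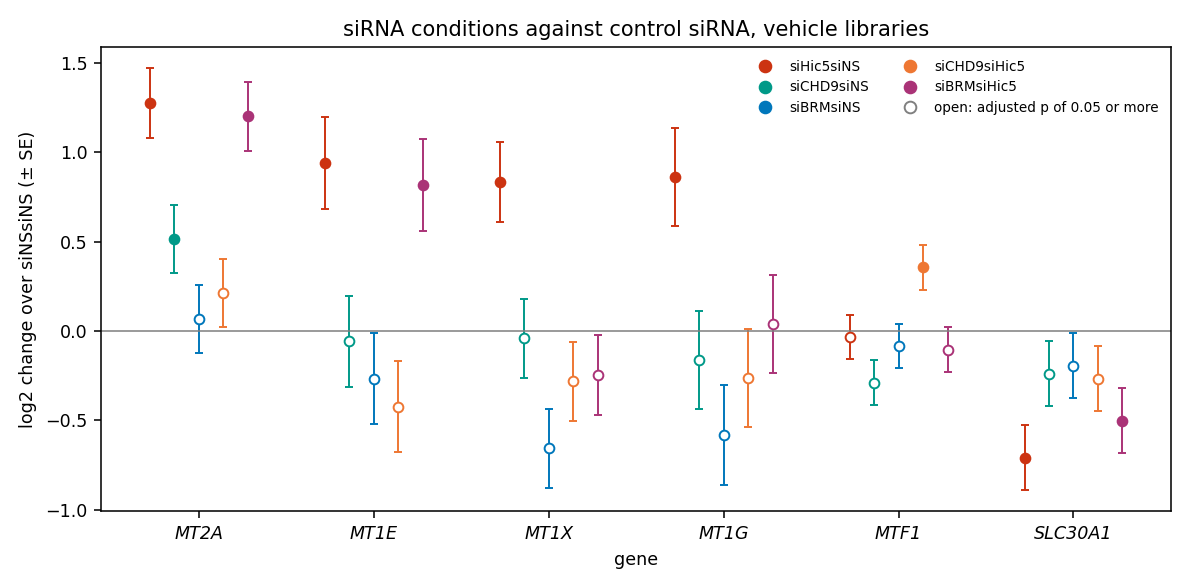
Log2 change over control siRNA, with its SE, of each gene in vehicle libraries for the other 5 siRNA conditions, with filled points for an adjusted p under 0.05. The 4 metallothioneins are called higher in siHic5siNS, MT2A and MT1E also in siBRMsiHic5, and SLC30A1 is called lower in these same conditions.

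The same contrast in dex libraries gave similar values. MT2A stood at 2415, 2723 and 2351 in siHic5siNS against 999, 941 and 1015 in control cells (1.34 ± 0.19), and SLC30A1 at 35.2, 33.8 and 32.8 against 71.6, 77.8 and 44.7 (-0.93 ± 0.18). MT1E (0.99), MT1G (0.80) and MT1X (0.65) were also called, 5 of 6 in all with 53.6% of all genes called. MT1X lost its call without siHic5siNS replicate 2 (0.40, adjusted p = 0.16) or control replicate 3 (0.59, adjusted p = 0.054), and MT1G without siHic5siNS replicate 2. Summed over the 4 genes, metallothionein RNA stood at 869 ± 191 scaled CPM (SD, n = 3) in control cells with vehicle and 1704 ± 89.0 with dex. In siHic5siNS it stood at 1933 ± 118 with vehicle and 3895 ± 498 with dex.

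In the libraries labelled siCHD9siHic5, all 4 metallothioneins were lower than in siHic5siNS, with vehicle and with dex. In vehicle libraries labelled siCHD9siHic5, MT2A stood at 496, 635 and 745 scaled CPM, within or near the range of control cells and below all 3 siHic5siNS libraries. Between these and siHic5siNS, 56.5% of all genes did not overlap. MT1E stood at 140, 238 and 278, of which 140 and 238 lay below the lowest control library (240). Against siHic5siNS, all 6 genes were called (47.7% of all genes): MT1E by -1.36 ± 0.26, MT1G by -1.12 ± 0.27, MT1X by -1.11 ± 0.22, MT2A by -1.06 ± 0.19, SLC30A1 by 0.44 ± 0.18 and MTF1 by 0.39 ± 0.12. The SLC30A1 call (adjusted p = 0.047) was lost without scaling factors (0.43, adjusted p = 0.061) and without 5 of the 6 libraries in turn, and the MTF1 call without siHic5siNS replicate 1 (0.32) or 3 (0.31). With the high-RNA28S5 libraries left out, MTF1 (0.31, adjusted p = 0.0536) and SLC30A1 (0.43, adjusted p = 0.0693) both lost their call. In dex libraries all 6 were called again (47.8%), with -1.22 for MT1E, -0.86 for MT2A and 0.71 for SLC30A1. There the MT1G call was lost without siHic5siNS replicate 2 (-0.68), and the MTF1 call without siCHD9siHic5 replicate 2 (0.31) or siHic5siNS replicate 1 (0.32).

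Against control cells, the vehicle libraries labelled siCHD9siHic5 differed in 1 gene of 6, MTF1, where 52.6% of all genes were called. MTF1 stood at 55.1, 54.0 and 48.7 scaled CPM against 43.6, 42.9 and 36.8, without overlap (as for 62.2% of all genes), by 0.36 ± 0.12 (adjusted p = 0.0176, edgeR). The call was lost without siCHD9siHic5 replicate 1 (0.32, adjusted p = 0.061) or 2 (0.34, adjusted p = 0.051), without control replicate 3 (0.28, adjusted p = 0.092), or with the high-RNA28S5 libraries left out (0.28, adjusted p = 0.0712). With dex, MTF1 (0.43 ± 0.12) and MT2A (0.48 ± 0.19, adjusted p = 0.0385) were called, with 51.5% of all genes; the MT2A call was lost without any of 5 of the 6 libraries. MT2A was at 1120, 1537 and 1460 in these dex libraries, above the 3 control ones, where 63.1% of all genes did not overlap.

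The effect of adding Hic-5 siRNA was then compared with and without the CHD9 siRNA, a comparison chosen after the levels had been seen. Added to the CHD9 siRNA, it changed MT2A by -0.30 ± 0.19 and MT1E by -0.37 ± 0.25, neither called, and raised MTF1 by 0.65 ± 0.12 (adjusted p = 0.000224, edgeR; 36.8% of all genes called). The difference of the 2 effects was -1.58 ± 0.27 for MT2A (adjusted p = 0.000182), -1.31 ± 0.36 for MT1E (0.0104), -1.07 ± 0.31 for MT1X (0.0151) and 0.68 ± 0.18 for MTF1 (0.00677). These were 4 called of 6, where 21.3% of all genes were called. MT1G (-0.96, adjusted p = 0.0755) and SLC30A1 (0.68, adjusted p = 0.0584) were not, but both were with the high-RNA28S5 libraries left out (-1.15 and 0.84). MT1X lost its call without siCHD9siHic5 replicate 1 (-0.88, adjusted p = 0.056) or siHic5siNS replicate 2 (-0.84, adjusted p = 0.064). With the replicate number as an additive term both were called as well (MT1G -0.94, adjusted p = 0.0381; SLC30A1 0.67, adjusted p = 0.0207), which makes 6 of 6 beside 27.1% of all genes. The CHD9 transcript was not low in these libraries, and a knockdown that failed and crossed labels cannot be told apart, so the values are those of the libraries as labelled. Of TGFB1I1, CHD9, SMARCA2 and the GR gene NR3C1, siHic5siNS had 1 called lower and 1 called higher than control cells with vehicle. With dex 2 were called lower. Whether siHic5siNS took part in a crossing of labels was not tested.

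**Figure D4:**
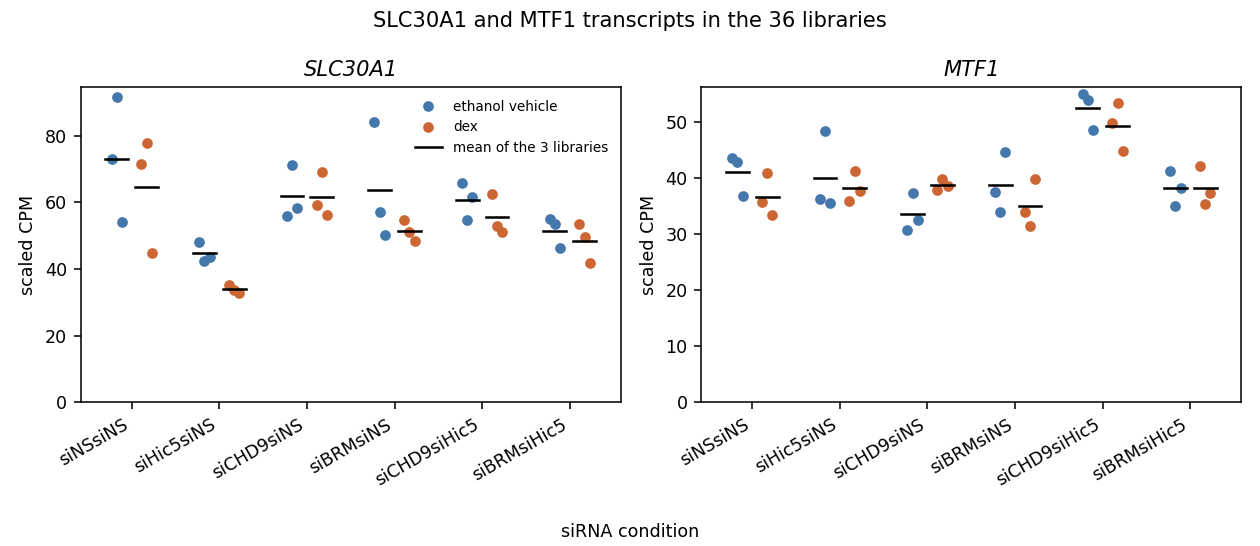
Scaled CPM of SLC30A1 and MTF1 in each of the 36 libraries, by siRNA condition, with vehicle in blue, dex in orange and the mean of 3 libraries as a bar, on axes from 0. SLC30A1 is lowest in siHic5siNS, and MTF1 is highest in the libraries labelled siCHD9siHic5.

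The CHD9 siRNA by itself raised MT2A in vehicle libraries, at 880, 585 and 848 scaled CPM against 558, 406 and 654. The groups overlapped, and the log2 change was 0.52 ± 0.19 (adjusted p = 0.0401, edgeR; 32.3% of all genes called). That single call was lost without scaling factors (0.47, adjusted p = 0.056), without siCHD9siNS replicate 1 or 3, and without control replicate 1 or 2, so it rests on those libraries. With the high-RNA28S5 libraries left out, MT2A (0.68) and MTF1 (-0.36) were both called. MT1E (-0.06), MT1X (-0.04) and MT1G (-0.16) were not. In dex libraries 0 of 6 genes were called by edgeR or DESeq2 (18.7% of all genes), and 1 had an unadjusted p under 0.05, MT2A at 0.42 ± 0.19.

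Where Hic-5 and BRM siRNA were combined, the 2 abundant metallothioneins were high and the 2 scarce ones were not. MT2A stood at 1214, 1446 and 1060 scaled CPM in siBRMsiHic5 vehicle libraries, all above the 3 control libraries, by 1.20 ± 0.19 (adjusted p = 1.79e-05, edgeR). Between these 2 groups 58.7% of all genes did not overlap. MT1E stood at 605, 589 and 357, by 0.82 ± 0.26 (adjusted p = 0.00969), its replicate 3 within the control range. MT1X stood at 25.1, 28.1 and 26.6 (-0.25 ± 0.22, adjusted p = 0.372) and MT1G at 4.58, 6.09 and 3.43 (0.04 ± 0.27, adjusted p = 0.918). SLC30A1 was lower, at 54.9, 53.5 and 46.3 (-0.50 ± 0.18, adjusted p = 0.0242). This made 3 called of 6, with 48.9% of all genes called. The MT1E call was lost without control replicate 2 (0.69, adjusted p = 0.056). The SLC30A1 call was lost without siBRMsiHic5 replicate 3 (-0.43), control replicate 1 (-0.50) or control replicate 2 (-0.30), and with the high-RNA28S5 libraries left out (-0.59, adjusted p = 0.0784).

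Set against siHic5siNS, siBRMsiHic5 was lower in MT1X (-1.08 ± 0.22, adjusted p = 0.000248, edgeR) and MT1G (-0.82 ± 0.27, adjusted p = 0.0137), 2 called of 6 with 49.4% of all genes. The MT1G call was lost without siBRMsiHic5 replicate 3 (-0.64) or siHic5siNS replicate 2 (-0.54). MT2A (-0.07, 95% interval -0.47 to 0.32) and MT1E (-0.12, -0.64 to 0.40) were not called. Dex libraries gave MT1X -1.07 ± 0.22, MT1G -0.99 ± 0.27 and SLC30A1 0.51 ± 0.18 (45.6% of all genes), the last lost without siBRMsiHic5 replicate 1 or 2, without siHic5siNS replicate 2 or 3, and with the high-RNA28S5 libraries left out (0.64, adjusted p = 0.0521). Within the dex group, MT2A stood at 2634, 2325 and 1370, with replicate 3 well below the others, and against control cells MT2A (1.10) and MT1E (0.72) were called (45.5%). The MT1E call there was lost without siBRMsiHic5 replicate 1 (0.45) or 2 (0.66), or control replicate 2 (0.66) or 3 (0.71).

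Adding Hic-5 siRNA to BRM siRNA raised MT2A by 1.13 ± 0.19 (adjusted p = 0.000196, edgeR) and MT1E by 1.08 ± 0.26 (adjusted p = 0.00362), 2 called of 6 with 22.4% of all genes. The difference of this effect from that of Hic-5 siRNA without BRM siRNA was -0.14 ± 0.27 for MT2A, 0.14 ± 0.36 for MT1E, -0.42 ± 0.31 for MT1X and -0.24 ± 0.39 for MT1G. It was called in 0 of 6 by edgeR and by DESeq2, with 0 at an unadjusted p under 0.05 and 21% of all genes called. Its 95% interval for MT1X ran from -1.07 to 0.22.

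With BRM siRNA by itself, MT2A stood at 552, 636 and 509 scaled CPM in vehicle libraries, within the range of control cells, and MT1E at 233, 288 and 210, overlapping it. MT1X stood at 20, 20.7 and 19.3 scaled CPM against 30.2, 26.7 and 37.7, all 3 below the lowest control library, with a log2 change of -0.66 ± 0.22 (adjusted p = 0.0697, edgeR). MT1G, at 2.88, 3.81 and 2.48 against 4.28, 4.67 and 4.77, did not overlap either. Such a lack of overlap held for 22.7% of all genes. No gene of the 6 was called by edgeR (6.45% of all genes), 2 had an unadjusted p under 0.05 and DESeq2 called 1, MT1X. In dex libraries MT1X was called, at 46.0, 38.1 and 35.4 against 70.1, 62.3 and 58.4 (-0.68 ± 0.22, adjusted p = 0.0452; 11.8% of all genes). That call was lost without siBRMsiNS replicate 2 or 3, without control replicate 1 or 2, and with the high-RNA28S5 libraries left out (-0.47, adjusted p = 0.462).

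The makeup of the metallothionein pool also differed between conditions. MT1X made 3.66 ± 0.244% of the counts of the 4 genes in control vehicle libraries (SD, n = 3), 2.89 ± 0.588% in siHic5siNS, 2.42 ± 0.218% in siBRMsiNS and 1.52 ± 0.275% in siBRMsiHic5. The siBRMsiHic5 libraries, at 1.36 to 1.84%, were below every library of the other 5 vehicle groups, the nearest being siBRMsiNS at 2.18%. With dex the siBRMsiHic5 share was 1.28 to 2.02% and that of control cells 3.39 to 3.93%. There siBRMsiHic5 was not separate from every other group: it overlapped siHic5siNS (2.00 to 2.98%) and siCHD9siNS (1.90 to 2.70%). MT1G fell from 0.544 ± 0.127% in control vehicle libraries to 0.260 ± 0.0304% in siBRMsiHic5, while its own level, given above, was not called as changed (0.04 ± 0.27) and MT2A and MT1E were higher. The MT1X share may hold reads from relatives with shared exons, as given above. High RNA28S5 marks 2 of the 3 siBRMsiHic5 libraries of each treatment, and its part in these shares was not tested.

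**Figure D5:**
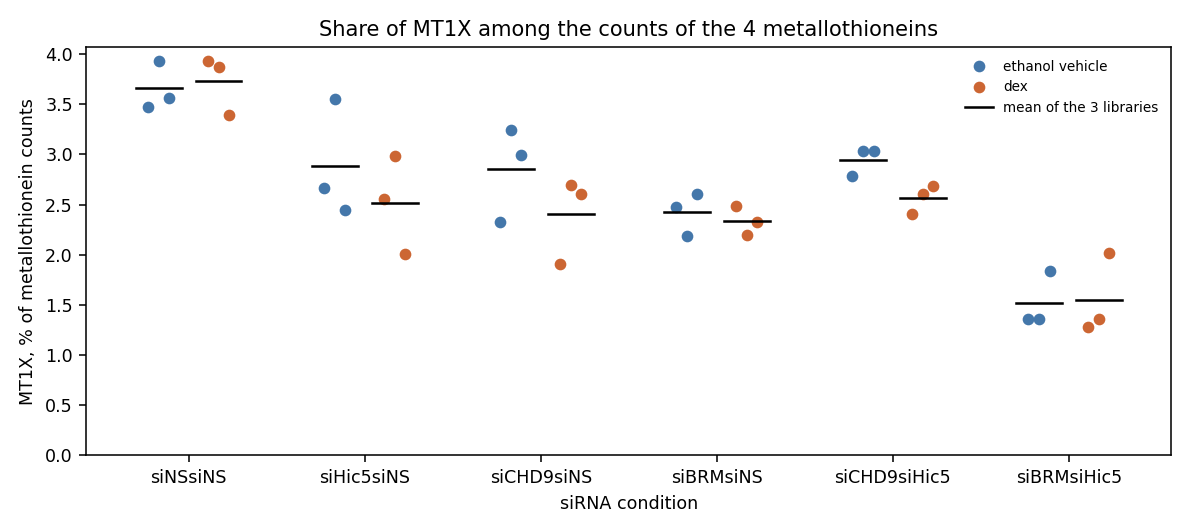
MT1X as a percentage of the counts of the 4 metallothioneins in each of the 36 libraries, by siRNA condition, with vehicle in blue, dex in orange and the mean of 3 libraries as a bar, on an axis from 0. Control libraries lie between 3.39 and 3.93% and siBRMsiHic5 libraries between 1.28 and 2.02%. With dex the siBRMsiHic5 range overlaps those of siHic5siNS and siCHD9siNS.

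Ordered by the mean of the 12 groups, MT2A ran from 539 ± 125 scaled CPM in control vehicle libraries to 2497 ± 199 in siHic5siNS with dex. Neighbours in this order overlapped with 1 exception, control with dex (985 ± 38.8) over siCHD9siNS with vehicle (771 ± 162). MT1E ran from 219 ± 71.4 in the vehicle libraries labelled siCHD9siHic5 to 1285 ± 288 in siHic5siNS with dex, and all of its neighbours overlapped. SLC30A1 ran the opposite way, from 33.9 ± 1.23 in siHic5siNS with dex to 73.0 ± 18.8 in control vehicle libraries. Its only gap between neighbours was the one between the 2 siHic5siNS groups. MTF1 ran from 33.6 ± 3.45 in siCHD9siNS with vehicle to 52.6 ± 3.44 in the vehicle libraries labelled siCHD9siHic5, and its only gap between neighbours was below the dex libraries labelled siCHD9siHic5 (49.4 ± 4.29), next to control vehicle libraries (41.1 ± 3.71).

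Across the 12 group means, the log2 levels of MT2A and SLC30A1 had a Pearson correlation of -0.83, given as a description of 12 groups that share dex and siRNA. The 5 genes of 14111 whose log2 group means followed MT2A most closely were MT1E (0.948), SLC19A2, a thiamine transporter (0.938), ADCY8, an adenylyl cyclase (0.933), LINC00607 (0.900) and CLVS2 (0.899). Those nearest to SLC30A1 were PVR, a cell adhesion receptor (0.969), FANK1 (0.961), CXADR, the coxsackievirus and adenovirus receptor (0.958), ATP8B1 (0.956) and GMEB1 (0.946). These orders depend on the measure. Over the 36 libraries MT1E stayed first for MT2A and the other 4 ranked 8 to 14, but by Spearman correlation over the group means MT1E ranked 67.5. For SLC30A1 the 5 genes ranked 37 to 730 over the 36 libraries and 6 to 173.5 by Spearman correlation.

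The other zinc transporters were counted for Hic-5 siRNA in vehicle libraries, where 53.1% of all genes were called. Of the 7 ZnT exporters tested, 5 rose and 1 fell, with a median log2 change of 0.43 beside -0.01 for all genes. SLC30A2, which loads zinc into vesicles, rose by 2.49 ± 0.42 (adjusted p = 1.76e-05, edgeR) from 0.590 ± 0.221 to 3.32 ± 0.665 scaled CPM, and SLC30A3, a vesicular transporter of neurons, by 1.00 ± 0.25. SLC30A5, which serves the early secretory pathway, fell by 0.82 on the log2 scale, and SLC30A9 rose by 0.62. Of the 10 ZIP importers tested, 2 rose and 3 fell, with a median of -0.12, so the share called was not above that of all genes. SLC39A14, which imports zinc, iron and manganese, rose by 0.97 ± 0.21 and SLC39A13 by 0.63 ± 0.09, while SLC39A10 fell by 1.51 and SLC39A8 fell by 0.75 on the log2 scale.

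In both double conditions SLC30A2 was back near its control level, a level below 1 scaled CPM and so near the floor. Against siHic5siNS it was lower by -2.92 ± 0.43 in the libraries labelled siCHD9siHic5 (adjusted p = 2.61e-06, edgeR) and by -2.48 ± 0.41 in siBRMsiHic5. In these comparisons 47.7% and 49.4% of all genes were called. The effect of Hic-5 siRNA on SLC30A2 differed with CHD9 siRNA (-2.26 ± 0.63, adjusted p = 0.0107, edgeR, 21.3% of all genes called). It also differed with BRM siRNA (-1.88 ± 0.62, adjusted p = 0.0302, edgeR, 21% of all genes called). That last difference was not called for MT2A or MT1E, and whether the genes differ in it was not tested. FKBP5 rose by 1.49 ± 0.28 and TSC22D3 by 0.67 ± 0.24 in siHic5siNS with vehicle, and the difference of the Hic-5 effect was called for both with CHD9 siRNA (-1.26 and -1.21) and with BRM siRNA (-1.68 and -1.39).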

How the data were processed

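Total RNA gave 36 libraries by Illumina protocols, per the labels' protocols. The authors aligned reads with TopHat2 2.1.1 to GRCh38/hg38 and used edgeR, per the submitters' processing notes. Not given in the sources used here are the counter and the annotation. Deposited values are raw counts, although the table is named for normalised CPM: they are whole numbers with unequal library totals. Genes needed a scaled CPM over 1 in 3 or more libraries, and 15179 entered edgeR 4.0.16 quasi-likelihood fits in R 4.3.3, using upper-quartile factors, 12 group means and 24 residual degrees of freedom. DESeq2 1.42.0 was an alternative. The block fit has 18 pair terms and 12 residual degrees of freedom. Same-numbered vehicle and dex libraries correlated at 0.458 to 0.922 in their deviations, and every pair passed 0.1 in 6 of 6 conditions; across siRNA conditions this held in 3 of 7 comparisons in vehicle libraries (-0.242 to 0.722), 3 of 7 in dex libraries (-0.145 to 0.621) and 2 of 2 where Hic-5 siRNA was added (0.264 to 0.657). The additive replicate block was therefore an alternative there. Fits were tested on simulated data without replicate effects, so that check does not cover how the block handles them. No 2 replicates matched within sampling noise (lowest chi-square per degree of freedom 9.41). Members, lists and tests were chosen with earlier results of these data known, and 11 of the 31 comparisons (siRNA conditions in dex libraries, and Hic-5 siRNA added to a remodeler siRNA) were added after the levels were seen. Named are all members, the siRNA targets, GR targets, for each list up to 4 called genes, by smallest p, and the 5 genes most like MT2A and SLC30A1. Promoters are from RefSeq, GRCh38.p14, and exon lengths and shared 50-base windows from GENCODE v29. The log2 correlations use a pseudocount of 0.5.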

Additional observations from a re-analysis of the deposited data

Results flagged for a closer look

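The effect of Hic-5 siRNA in vehicle libraries differed between cells with and without CHD9 siRNA, by a test of the difference itself (edgeR's quasi-likelihood test with Benjamini-Hochberg adjustment), for 4 of the 6 genes, where 21.3% of all genes were called. With the additive replicate block it was 6 of 6 beside 27.1%. The difference was -1.58 ± 0.27 (SE, log2) for MT2A, -1.31 ± 0.36 for MT1E, -1.07 ± 0.31 for MT1X and 0.68 ± 0.18 for MTF1. Adding Hic-5 siRNA raised these 3 metallothioneins in cells without CHD9 siRNA and was called for none of them with it, while MTF1 was called higher with it and not without it. CHD9 RNA, the target of the siRNA, was higher in the libraries labelled siCHD9siHic5 than in siCHD9siNS by 1.03 ± 0.18, and its part in these differences was not tested. A knockdown that failed and crossed labels cannot be told apart.

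The dex response of MTF1 differed between siCHD9siNS and control cells by 0.37 ± 0.09 (adjusted p = 0.028, edgeR with the replicate block), with a rise in the former in 3 of 3 pairs and a fall in the latter in 3 of 3. With the block 4.03% of all genes were called in this comparison. The MTF1 call was lost without pair 1 of siCHD9siNS and without pair 1 or 3 of control cells. Without the block it was not called.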

How the results depend on the processing

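TMM factors and no filter on low counts changed none of the 186 gene results. Without scaling factors 1 gene in place of 2 was called between the dex libraries labelled siCHD9siHic5 and control. DESeq2 called 3 in place of 0 in the dex response of siBRMsiHic5 and 1 in place of 0 between siBRMsiNS and control vehicle libraries, and also 3 in place of 2 in the dex response of siHic5siNS (MT1X) and 5 in place of 4 in the difference of the Hic-5 effect with CHD9 siRNA (SLC30A1). With only the libraries of at most 1% RNA28S5, an alternative added after seeing the data that leaves 1 library in each siBRMsiNS and siBRMsiHic5 group (assumed to vary like the other groups), the counts were 0 for the dex response of siBRMsiNS and 0 for siBRMsiNS against control with dex; they were 0 for siCHD9siHic5 and 2 for siCHD9siNS against control with vehicle. None of these settings turned a called direction.

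With the replicate block for the 18 pairs, the dex response counted 4 of 6 genes in siBRMsiHic5, 5 in siCHD9siNS and 5 in siHic5siNS, and the difference of dex responses between siCHD9siNS and control counted 1. The additive replicate block across siRNA conditions, where every same-numbered pair correlated over 0.1 in 3 of 7 vehicle, 3 of 7 dex and 2 of 2 Hic-5-added comparisons, changed no call in those comparisons. In the others it gave 1 (MT1X, -0.66, adjusted p = 0.0436, edgeR) for siBRMsiNS against control with vehicle in place of 0, called MT1G (-0.94) and SLC30A1 (0.67) in the difference of the Hic-5 effect with CHD9 siRNA, and SLC30A1 (-0.41) for siBRMsiHic5 against control with dex. The blocks lost no call. Over all genes, the dex response of control cells counted 52 genes without the block and 379 with it.

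Leaving out 1 library in turn, the dex response counted 0 to 2 genes in siBRMsiHic5, 0 to 3 in siBRMsiNS, 1 to 3 in siCHD9siHic5, 0 to 1 in siCHD9siNS, 1 to 3 in siHic5siNS and 0 to 1 in control cells. With the block and without 1 pair these were 3 to 4, 3 to 5, 4 to 4, 4 to 5, 5 to 5 and 3 to 4, and the difference between siCHD9siNS and control 0 to 1. Against control with dex, siBRMsiHic5 counted 1 to 2, siBRMsiNS 0 to 2, siCHD9siHic5 1 to 2 and siHic5siNS 3 to 5. With vehicle, siBRMsiHic5 counted 1 to 3, siCHD9siHic5 0 to 1 and siCHD9siNS 0 to 2 against control, and siBRMsiHic5 1 to 2 against siHic5siNS. Over single genes, 1330 of these left-out results kept direction and side of the threshold, 99 lost the call and 11 gained it. MT1G had the fewest counts of the 6 genes, 91 to 580 a library. P-values measure the spread between replicates of a group, estimated from all 36 libraries together. In the block fits they measure the spread left after the replicate terms.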

Other observations

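Metallothioneins also bind copper and respond to oxidative stress, and genes of both kinds were counted for Hic-5 siRNA in vehicle libraries. Of 8 copper genes 1 rose and 1 fell, and of 7 stress genes 2 rose and 1 fell in siHic5siNS, both smaller shares than the 53.1% of all genes called. HMOX1, heme oxygenase 1, rose by 4.98 ± 0.51 (SE, log2) in siHic5siNS, from 68.2 ± 12.5 to 2158 ± 884 scaled CPM, and by 4.44 ± 0.50 in the libraries labelled siCHD9siHic5, where MT2A and MT1E were not called against control cells (edgeR). Between these last conditions HMOX1 differed by -0.55 ± 0.43 (adjusted p = 0.309, edgeR), beside -1.06 ± 0.19 for MT2A. Whether HMOX1 and MT2A differ in this was not tested. GCLM, a subunit of the enzyme that starts glutathione synthesis, rose by 0.95 ± 0.18 in siHic5siNS and 1.21 ± 0.18 in the libraries labelled siCHD9siHic5. TXNRD1, a thioredoxin reductase, fell by 0.91 on the log2 scale in siHic5siNS.

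SLC31A2, a copper transporter, rose in siHic5siNS by 1.45 ± 0.18, in the libraries labelled siCHD9siHic5 by 0.98 ± 0.18, in siBRMsiHic5 by 1.20 ± 0.18 and in siBRMsiNS by 0.69 ± 0.18. ATOX1, a copper chaperone, fell by 0.55 on the log2 scale in siHic5siNS and rose by 0.56 ± 0.12 in siBRMsiHic5 and 0.62 ± 0.12 in siCHD9siNS. With dex, GCLC, the other subunit of that enzyme, rose in all 6 conditions with the replicate block, by 0.19 to 0.36, and in none without it, where the block called 1.87% to 11.1% of all genes higher. It was named after its values were seen. Of the same 7 stress genes, the block called NQO1 lower in siCHD9siNS (-0.22) and SRXN1 (-0.37) and TXNRD1 (-0.57) lower in siBRMsiHic5.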
